A study of Homo sapiens with 8 samples.

Results

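The genes described here are those of protein folding and the unfolded protein response in the endoplasmic reticulum (ER), the compartment in which secreted and membrane proteins are made. They were taken by symbol from a list of 34 genes, and 33 of them had a row in the gene table of 23562 rows. WFS1 was not analysed here. All 33 passed the filter on low counts, out of 13838 genes tested. They fall into 5 roles: 5 stress sensors and their effectors, 11 chaperones and cochaperones, 6 oxidative folding enzymes, 8 degradation genes and 3 translocon genes.

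All 8 libraries were polyadenylated RNA from OCI-AML5 cells, a long-established line of human acute myeloid leukemia. Every culture had been transduced with lentiCRISPRv2, a lentiviral vector that delivers the nuclease Cas9 together with 1 guide RNA. In 4 libraries (sgControl 1 to 4) the guide was a non-specific control, and in the other 4 (sgCEBPD 1 to 4) it was directed at CEBPD, which encodes the transcription factor C/EBPδ. The labels number the guides 1 to 4 in each group, give no guide sequence and tell of no repeat transduction with the same guide. A p-value here therefore reflects only how these libraries vary, and part of that spread may be technical. The study asked how CEBPD acts in acute myeloid leukemia, and the comparison implied by its design is sgCEBPD against sgControl. Levels are given as CPM (a gene's reads as a share of the library total, on the usual fixed base), scaled between libraries by the TMM method, which sets the bulk of genes equal.

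Library totals lay between 10217751 and 11521209 counts. CEBPD itself read 202 to 216 CPM in the controls and 107, 209, 195 and 164 CPM in sgCEBPD 1 to 4. Its difference did not pass the test described below (log2 fold change -0.29, SE 0.18, adjusted p = 0.551, edgeR quasi-likelihood). These are RNA levels, and neither the protein nor edits of the gene were measured here, so they do not tell whether the targeting worked. Library sgCEBPD 3 differed from the other 7. It was the highest of the 8 libraries for 34.8% of all genes tested and the lowest for 34.9%. Its summed level of 15 monocyte and macrophage markers was 1078 CPM, against 554 to 604 CPM in the controls and 541 to 719 CPM in the other sgCEBPD libraries. In that library 13 of these 15 markers were above all others and none was at 0. Among them, ITGAM read 210.4 CPM against at most 21.3 CPM, and CD14 read 41.0 CPM against at most 2.74 CPM. A set of 6 B and T cell markers summed to 85.5 CPM there and to at most 7.45 CPM elsewhere, of which CD3D gave 52.7 CPM and TRAC 27.8 CPM. Neutrophil markers (10 genes) summed to 103 to 135 CPM in the controls, 81.5 to 82.2 CPM in sgCEBPD 1, 2 and 4 and 108 CPM in sgCEBPD 3. That sum hides opposite moves of single markers. CTSG read 25.2 to 41.4 CPM in the controls, 5.30 to 8.05 in sgCEBPD 1, 2 and 4 and 4.72 in sgCEBPD 3. S100A8 read 0.525 to 2.02, 5.01 to 11.6 and 0.0982 CPM in the same order. AZU1 (18.9 CPM) and BPI (17.6 CPM) were highest in sgCEBPD 3. Plasma cell markers (3 genes, 3.24 CPM there and 3.93 to 10.9 CPM elsewhere) and epithelial and stromal markers (4 genes, at most 1.99 CPM in any library) were low throughout. Of the markers listed for a myeloid leukemia line, CD33 (99.0 to 143 CPM) and SPI1 (297 to 433 CPM) were present in all 8 libraries. CSF2RA (0 to 1.08 CPM) and IL3RA (0.437 to 3.63 CPM) of the same list were low in all 8. The others differed in sgCEBPD 3. KIT read 2.46 CPM there against 18.1 to 51.9 CPM elsewhere, CD34 7.86 against 13.4 to 104 CPM, MPO 11.8 against 12.4 to 21.0 CPM, and PTPRC (CD45) 943 against 306 to 496 CPM. The 2 erythroid and megakaryocyte markers in the table summed to 57.5 CPM there and to 17.7 to 39.4 CPM elsewhere. Nearly all of that sum was ITGA2B (57.4 CPM in sgCEBPD 3). ALAS2 read 0.0982 CPM there and at most 0.363 CPM elsewhere. Results are therefore given with sgCEBPD 3, without it, and for it alone. In RNA from bulk cultures, fewer cells of a type and less RNA per cell cannot be told apart.

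The ER senses misfolded protein through 3 membrane proteins. ERN1 (IRE1) is a kinase and ribonuclease that splices XBP1 RNA into the form that encodes an active transcription factor. EIF2AK3 (PERK) phosphorylates the initiation factor eIF2α, which slows translation in general and favours ATF4, and PPP1R15A (GADD34) directs the phosphatase that reverses this step. ATF6 moves to the Golgi when the chaperone HSPA5 (BiP) leaves it, is cut there, and its freed part activates chaperone genes. Proteins that fail to fold are returned to the cytosol and destroyed by ER-associated degradation, whose ligase SYVN1 works with SEL1L, the Derlins and HERPUD1. In secretory and myeloid cells this system is known for keeping pace with the making of granule and surface proteins.

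In the control libraries the genes covered a wide span of levels. Divided by the length of each gene's merged exons (GENCODE 29, GRCh38), CALR was highest at 532 ± 44.6 CPM per kb (SD, n = 4). XBP1 followed at 222 ± 18.7, P4HB at 166 ± 11.4 and HSPA5 at 137 ± 9.33 CPM per kb, and the control ranges of these 4 did not overlap one another. HSPA5 and the next gene, the membrane chaperone CANX (128 ± 4.27 CPM per kb), did overlap. Among the sensors, ATF6 stood at 12.2 ± 0.569 CPM per kb, EIF2AK3 at 3.46 ± 0.192 and ERN1 at 1.67 ± 0.0926, so both sensor kinases were among the 3 lowest of the 33 per kb. This order depends on the annotated exon length. By mean CPM without that division, DNAJB9 (10.8) lay below ERN1 (18.1) and EIF2AK3 (18.8), and P4HB (883) lay above XBP1 (672). DERL3, a Derlin, was lowest at 0.561 ± 0.0823 CPM per kb. The coefficient of variation between the 4 control libraries ran from 2.03% for SEC61A1 to 14.7% for DERL3, with a median of 6.56% over the 33 genes and 8.05% over all genes tested.

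Many genes of this system carry an ER stress response element in their promoter, so the windows before the start sites were read from RefSeq (GRCh38.p14). Of the 33 genes, 30 matched a window of 300 bases, and DERL1, DERL3 and PDIA3 had no entry. An exact ERSE (CCAAT, then 9 free bases, then CCACG, on either strand) was found in 7 of the 30 windows (23.3%), against 22 of 27305 windows over all genes (0.0806%). These 7 genes were XBP1, HSPA5, HSP90B1, CALR, CANX, CRELD2 and ERO1B. The shorter ERSE-II (ATTGG, 1 free base, CCACG) was in HYOU1, SDF2L1 and HERPUD1, 3 of 30 against 0.0549% of all windows. The CCACG box, which both elements contain, was in 70% of the 30 windows and 37.9% of all. An exact UPRE (TGACGTGG) was in 1 of 30 windows, that of HYOU1, where it overlaps an ERSE-II, and in 0.795% of all. A C/EBP-ATF composite site (TGATGNAA) was in 1 of 30 windows, that of HERPUD1, and in 3.67% of all.

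The 250 bases before the start are printed for the genes on which the comparisons below turn, 5′ to 3′ on the gene's strand. The start is that of RefSeq, which can differ from the ends of the GENCODE gene positions given below. Except for HSPA5, the printed windows reach into those positions, so the distances hold for the RefSeq start only. Capitals mark the letters of an ERSE, ERSE-II, UPRE or composite site. HSPA5 (chr9:125241344-125241593, minus strand) has its ERSE beginning 66 bases before the start, XBP1 (chr22:28800570-28800819, minus strand) at 52 bases, and CALR (chr19:12938359-12938608, plus strand) at 225 bases on the opposite strand. HERPUD1 (chr16:56931892-56932141, plus strand) has its ERSE-II at 117 bases and the composite site at 176 bases, the latter on the opposite strand. PPP1R15A (chr19:48872171-48872420, plus strand) and P4HB (chr17:81860536-81860785, minus strand) hold none of the 4 elements in these windows. A match of letters is a description of the window and no measure of binding.
HSPA5: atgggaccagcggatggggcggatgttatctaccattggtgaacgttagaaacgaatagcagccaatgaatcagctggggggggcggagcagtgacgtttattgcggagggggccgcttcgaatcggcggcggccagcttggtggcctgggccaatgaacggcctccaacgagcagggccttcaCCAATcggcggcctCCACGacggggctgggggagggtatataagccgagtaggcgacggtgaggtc
XBP1: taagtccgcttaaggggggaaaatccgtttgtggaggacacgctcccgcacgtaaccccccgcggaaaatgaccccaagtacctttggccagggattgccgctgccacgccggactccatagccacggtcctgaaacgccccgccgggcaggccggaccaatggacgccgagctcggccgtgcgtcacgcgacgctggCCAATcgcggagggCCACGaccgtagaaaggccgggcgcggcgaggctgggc
CALR: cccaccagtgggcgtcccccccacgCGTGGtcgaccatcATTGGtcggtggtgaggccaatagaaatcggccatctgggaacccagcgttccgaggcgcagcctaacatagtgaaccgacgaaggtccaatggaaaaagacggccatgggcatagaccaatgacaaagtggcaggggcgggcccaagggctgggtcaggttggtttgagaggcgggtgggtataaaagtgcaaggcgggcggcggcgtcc
HERPUD1: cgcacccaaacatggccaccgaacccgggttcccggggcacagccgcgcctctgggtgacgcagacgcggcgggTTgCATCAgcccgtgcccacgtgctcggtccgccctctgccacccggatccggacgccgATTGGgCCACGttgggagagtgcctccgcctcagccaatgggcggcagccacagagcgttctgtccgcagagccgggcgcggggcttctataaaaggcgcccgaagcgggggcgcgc
PPP1R15A: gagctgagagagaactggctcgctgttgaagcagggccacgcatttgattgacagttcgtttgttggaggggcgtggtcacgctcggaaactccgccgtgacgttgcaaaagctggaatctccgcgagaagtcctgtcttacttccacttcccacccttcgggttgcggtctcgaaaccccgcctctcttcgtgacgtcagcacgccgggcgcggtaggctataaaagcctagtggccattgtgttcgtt
P4HB: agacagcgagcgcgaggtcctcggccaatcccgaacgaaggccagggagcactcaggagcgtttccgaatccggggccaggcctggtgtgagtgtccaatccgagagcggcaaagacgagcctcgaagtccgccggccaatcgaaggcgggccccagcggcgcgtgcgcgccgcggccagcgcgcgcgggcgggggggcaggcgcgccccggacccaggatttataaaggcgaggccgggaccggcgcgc

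Over all 8 libraries, no ER gene passed the test. The groups did not overlap for 3 of the 33: HERPUD1 and PPP1R15A (2 of 33) had higher values in all 4 sgCEBPD libraries, and P4HB (1 of 33) had lower ones, shares close to those over all genes. The test was edgeR's quasi-likelihood test on the counts, with Benjamini-Hochberg adjusted p-values (computed across the whole table) and a threshold of 0.05. It called 0 of 33 members, beside 0.0795% of all genes tested (0.00723% higher and 0.0723% lower, 11 genes in all). At an unadjusted p under 0.05 there were 2 members higher and 1 lower, beside 6.56% and 4.83% of all genes. Over all genes, the groups did not overlap for 4.96% upward and 4.62% downward, so the members' counts are no result about them as a list. On the same counts DESeq2 called 2 members (P4HB and HERPUD1), beside 292 genes over the whole table. It gave no adjusted p for PPP1R15A, which was therefore not tested by it. Limma-voom with library quality weights called 1 member (HERPUD1), beside 233 genes over the whole table.

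HERPUD1, a membrane protein that helps assemble the SYVN1 degradation complex, lies at chr16:56932048-56944863, plus strand (GRCh38). It read 44.0, 51.8, 44.1 and 47.5 CPM in sgControl 1 to 4. In sgCEBPD 1, 2 and 4 it read 71.3, 95.3 and 63.7 CPM, and in sgCEBPD 3 227 CPM. All 4 sgCEBPD values lay above all controls, and sgCEBPD 3 was more than the other 3 by a wide margin. The log2 fold change (sgCEBPD over sgControl) over 8 libraries was 1.29 with a standard error (SE) of 0.38, and edgeR's adjusted p was 0.317.

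PPP1R15A (chr19:48872392-48876057, plus strand) read 28.2, 30.2, 30.1 and 34.3 CPM in the controls. It read 37.0, 45.9 and 36.5 CPM in sgCEBPD 1, 2 and 4 and 191 CPM in sgCEBPD 3. The highest control and the lowest sgCEBPD library were close to each other, and sgCEBPD 3 lay far from all. Its log2 fold change was 1.33 (SE 0.54, adjusted p = 0.425, edgeR quasi-likelihood).

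P4HB, the abundant protein disulfide isomerase that also serves as a subunit of prolyl 4-hydroxylase, lies at chr17:81843159-81860694, minus strand. Its controls read 960.2, 841, 829 and 901 CPM, and sgCEBPD 1, 2 and 4 read 757, 696 and 757 CPM. In sgCEBPD 3 it was 685 CPM, the lowest of the 8 and close to sgCEBPD 2. No sgCEBPD library reached the lowest control. The log2 fold change was -0.29 (SE 0.07, adjusted p = 0.235, edgeR quasi-likelihood).

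**Figure D1:**
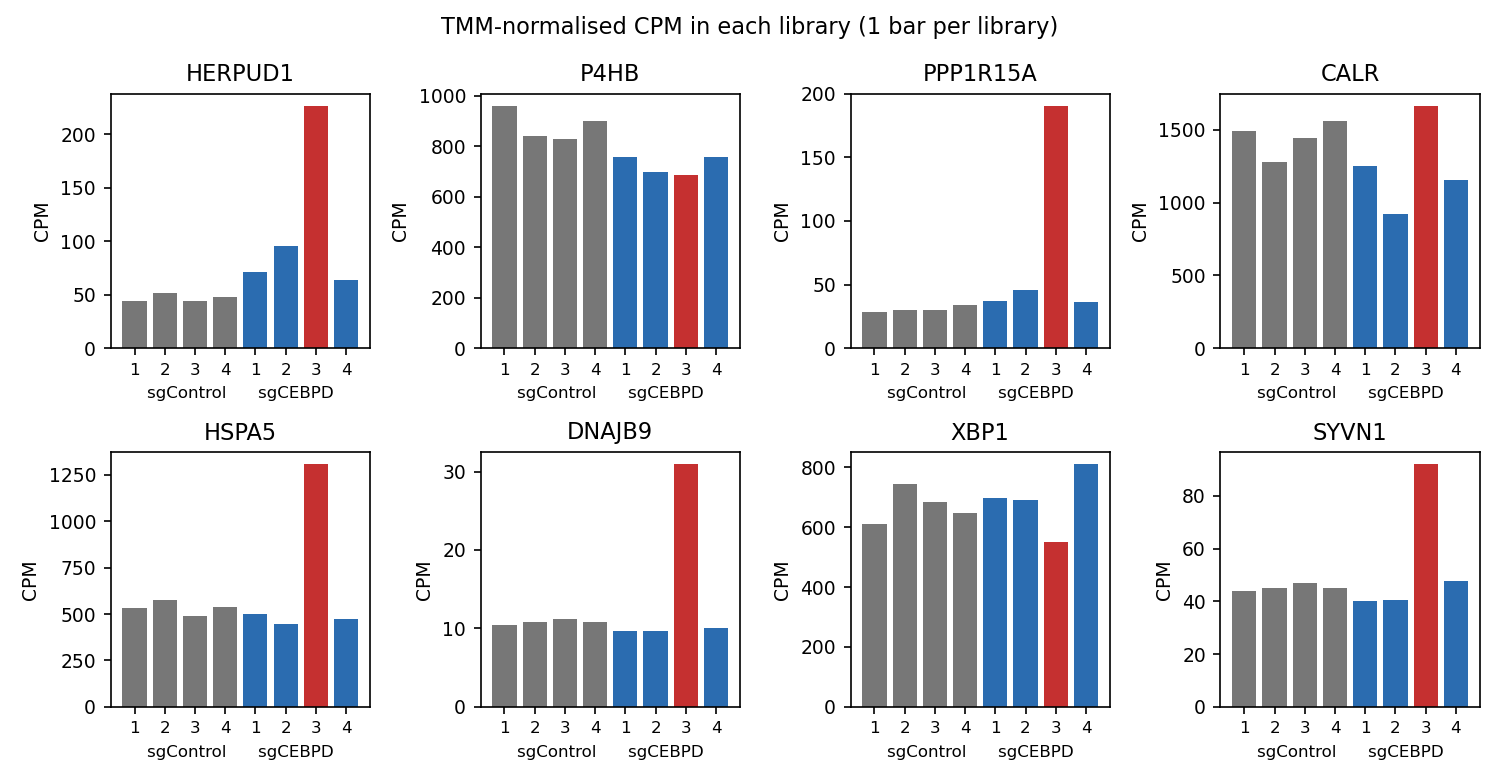
TMM-normalised CPM (y axis, from 0) of 8 of the genes in each of the 8 libraries (x axis), with 1 bar per library, grey for sgControl 1 to 4, blue for sgCEBPD 1, 2 and 4 and red for sgCEBPD 3. HERPUD1 lies above its controls in all 4 sgCEBPD libraries and P4HB lies below them in all 4, while HSPA5, DNAJB9 and SYVN1 are highest in sgCEBPD 3 and XBP1 is lowest there.

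Without sgCEBPD 3, HERPUD1 rose and P4HB fell, and most of the chaperones and oxidative folding enzymes had slightly lower values in the sgCEBPD libraries that did not pass. The same test on the other 7 libraries called 1 member higher and 1 lower, beside 0.705% and 1.31% of 14047 genes tested (2.01% in either direction). HERPUD1 averaged 46.9 ± 3.72 CPM in the controls (SD, n = 4) and 76.7 ± 16.5 CPM in sgCEBPD 1, 2 and 4 (SD, n = 3). Its log2 fold change reached 0.71 (SE 0.13, edgeR adjusted p = 0.0423). P4HB averaged 883 ± 60.4 CPM and 737 ± 35.2 CPM in the same groups, and its log2 fold change was -0.26 (SE 0.06, edgeR adjusted p = 0.0447). Both calls were close to the threshold and did not hold without some of the libraries. For HERPUD1 the adjusted p rose to 0.144, 0.0567, 0.114 and 0.110 without sgControl 1, 2, 3 and 4 and to 0.0870 without sgCEBPD 1, while the log2 fold change stayed between 0.53 and 0.83; it was also 0.0673 with no filter on low counts. For P4HB it rose to 0.117, 0.0559 and 0.116 without sgControl 1, 3 and 4 and to 0.100, 0.150 and 0.0653 without sgCEBPD 1, 2 and 4, with log2 fold changes between -0.29 and -0.22, and it was 0.0757 with limma-voom.

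Among the sensors and their effectors, 0 of 5 passed over these 7 libraries. ERN1, EIF2AK3 and XBP1 had log2 fold changes of 0.01 (SE 0.10), -0.00 (SE 0.08) and 0.13 (SE 0.08), each within about 2 standard errors of 0. ATF6 had -0.12 (SE 0.05, edgeR adjusted p = 0.322). PPP1R15A had the largest value of the role, 0.37 (SE 0.10), with 30.7 ± 2.60 CPM in the controls and 39.8 ± 5.28 CPM in sgCEBPD 1, 2 and 4, and its groups did not overlap. Its adjusted p was 0.0926 by edgeR and 0.0524 by DESeq2, and it passed only with no filter on low counts (0.0395). The counts are per gene, so the spliced and unspliced forms of XBP1 were not separated.

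Among the chaperones and cochaperones, 0 of 11 passed, and 8 of 11 had a negative log2 fold change. CALR, a calcium-binding lectin chaperone of glycoproteins (chr19:12938578-12944489, plus strand), read 1488, 1276, 1446 and 1561 CPM in the controls and 1253, 921 and 1153 CPM in sgCEBPD 1, 2 and 4. The highest of these 3 was just under the lowest control, and sgCEBPD 2 was the lowest of all. Its log2 fold change came to -0.38 (SE 0.12), and the adjusted p was 0.190 by edgeR and 0.00499 by DESeq2. HSPA5, the central Hsp70 chaperone of the ER (chr9:125234853-125241330, minus strand), had -0.17 (SE 0.06, edgeR adjusted p = 0.192), and its groups overlapped. Groups without overlap, all lower, were also found for HSP90B1 (GRP94, the ER Hsp90; log2 fold change -0.14, SE 0.05), SDF2L1 (-0.20, SE 0.06) and the HSPA5 cochaperones DNAJB9 (-0.14, SE 0.11) and DNAJB11 (-0.09, SE 0.06). The other chaperones lay between -0.21 for HYOU1, the ER's Hsp110-type nucleotide exchange factor, and 0.05 for CANX.

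Of the 6 oxidative folding enzymes 1 passed, P4HB, and all 6 had negative values. PDIA4, another disulfide isomerase, had a log2 fold change of -0.18 (SE 0.05, edgeR adjusted p = 0.111), with 148 ± 5.73 CPM in the controls, 130.0 ± 6.49 CPM in the 3 sgCEBPD libraries and no overlap. The oxidases ERO1A and ERO1B, which pass oxidising power to these isomerases, had -0.15 (SE 0.07) and -0.11 (SE 0.08). Of the 8 degradation genes 1 passed, HERPUD1. The others ran from -0.17 (SE 0.07) for EDEM1, which trims mannose from proteins bound for destruction, to 0.02 (SE 0.08) for DERL2, and the ligase SYVN1 had -0.08 (SE 0.07). None of the 3 translocon genes passed, and they lay between -0.05 for SEC61A1, the channel subunit, and 0.00 for SEC61B.

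Counted over the 33 genes, 9 log2 fold changes were positive and 24 negative without sgCEBPD 3, with a median of -0.08 beside 0.00 over all genes. Unadjusted p was under 0.05 for 2 members upward and 9 downward, beside 7.30% and 8.16% of all genes. The groups did not overlap for 2 members upward and 7 downward, beside 6.91% and 7.48%. The role medians were 0.01 for sensors and effectors (-0.0027 when libraries were scaled by their totals), -0.14 for chaperones, -0.13 for oxidative folding enzymes, -0.05 for degradation genes and -0.02 for translocon genes. With sgCEBPD 3 included they were 0.17, 0.21, 0.02 (-0.0071 when scaled by totals), 0.20 and -0.01, so those of chaperones and degradation genes stood on the other side of 0. These medians describe the lists and carry no test.

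**Figure D2:**
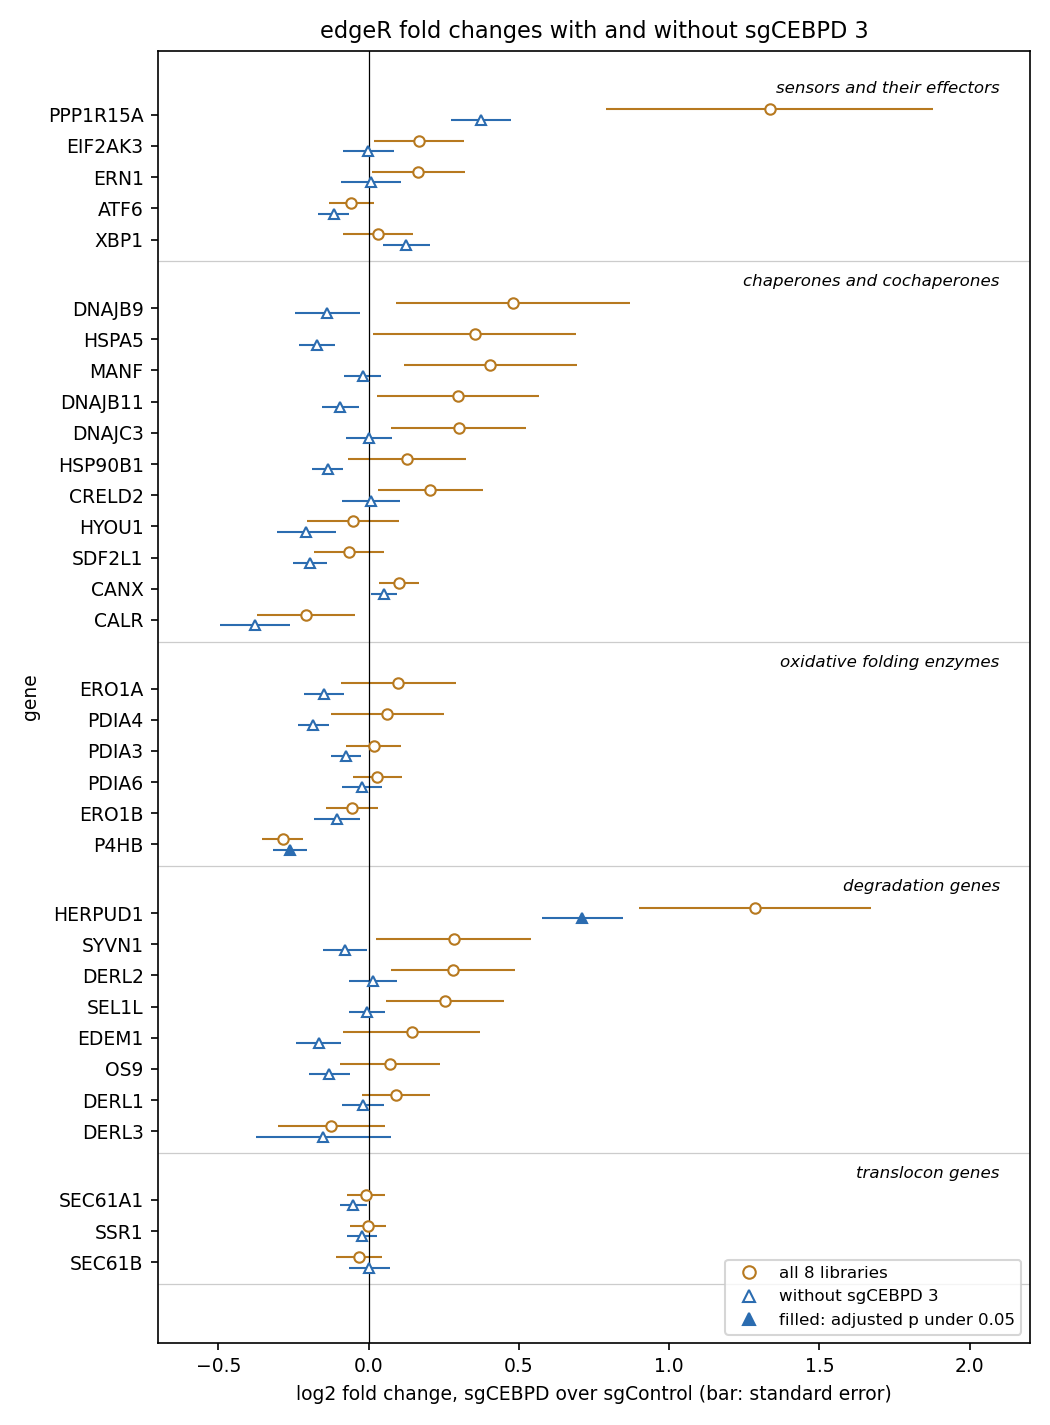
Log2 fold change of sgCEBPD over sgControl (x axis) with its standard error (bar) for each of the 33 genes (y axis), grouped by role, over all 8 libraries (open circles) and without sgCEBPD 3 (triangles, filled where the adjusted p was under 0.05). HERPUD1 and P4HB are the filled triangles, and the chaperones HSPA5, HSP90B1, DNAJB9 and DNAJB11 lie to the right of 0 with sgCEBPD 3 and to the left without it.

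Read library by library, sgCEBPD 1, 2 and 4 each had more of the ER genes below the controls than above them. In sgCEBPD 1, 4 of the 33 genes were above all 4 controls and 15 below, beside 23.6% and 23.9% of all genes. In sgCEBPD 2 the counts were 3 above and 15 below, beside 27.6% each way, and in sgCEBPD 4 they were 5 and 14, beside 23.5% and 24.1%. HERPUD1 and PPP1R15A were above in all 3 libraries. Of the 11 chaperones, 6, 7 and 6 were below the controls in sgCEBPD 1, 2 and 4. The median log2 ratio of the chaperones to their control mean was -0.09, -0.16 and -0.10 in these libraries, and that of the degradation genes -0.07, -0.05 and -0.05.

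In sgCEBPD 3 the genes of this system were mostly at their highest. Of the 33, 27 were above all 7 other libraries, beside 34.8% of all genes tested, 3 were below all 7, beside 34.9%, and 3 were within their range. Set against the 4 controls alone, the counts were also 27 above and 3 below, beside 39.4% and 40.3% of all genes. Of the 27, 15 were at least 1.5-fold the control mean, beside 16.4% of all genes, and 7 at least 2-fold, beside 8.14%. The median log2 ratio of sgCEBPD 3 to the control mean was 0.56 over the 33 genes and -0.02 over all genes. This is 1 library, so no test of a condition applies to it, and the marker genes given above moved in the same library; their part in these values was not tested. Scaled by library totals, the median of all genes in it shifted to -0.09 and that of the 33 genes to 0.48, 24 genes stayed above all others, and ATF6, PDIA6 and SEC61A1 came within the range.

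Among sensors and effectors, 4 of 5 were above all other libraries in sgCEBPD 3. PPP1R15A was 6.21-fold the control mean, the largest ratio of the 33 (log2 2.63), from 1940 reads (exact Poisson 95% interval 1855 to 2028, which covers counting error only). The sensor EIF2AK3 read 28.2 CPM against 18.0 to 20.4 CPM elsewhere, and ERN1 26.6 CPM against 16.8 to 20.7 CPM, so both were near 1.5-fold. ATF6 read 103 CPM against 86.2 to 100.2 CPM and was highest by a small margin only. XBP1, the substrate of ERN1 (chr22:28794555-28800597, minus strand), went the other way. It read 611, 744, 685 and 649 CPM in the controls, 697, 692 and 810.3 CPM in sgCEBPD 1, 2 and 4 and 549.8 CPM in sgCEBPD 3, the lowest of the 8 (log2 ratio -0.29).

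All 11 chaperones and cochaperones were above the other 7 libraries in sgCEBPD 3, and this held under each of the 3 scalings tried. HSPA5 read 535, 577, 488 and 538 CPM in the controls and 502, 448 and 472 CPM in sgCEBPD 1, 2 and 4. In sgCEBPD 3 it read 1308 CPM, 2.45-fold the control mean and more than any other library, and per kb of exon it moved from place 4 to place 2 among the 33. DNAJB9, an HSPA5 cochaperone that also restrains ERN1, read 10.5, 10.8, 11.2 and 10.8 CPM in the controls and 9.73, 9.65 and 10.1 CPM in sgCEBPD 1, 2 and 4. It read 30.9 CPM in sgCEBPD 3, 2.86-fold the control mean, while the other 7 libraries lay within a narrow band. Next came MANF, a small ER stress protein that is also secreted, at 90.2 CPM against 37.0 to 40.2 CPM, and DNAJB11 at 87.0 CPM against 37.4 to 42.7 CPM.

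The remaining chaperones formed a graded series in that library. DNAJC3 (P58IPK), a cochaperone named for its inhibition of eIF2α kinases, was 1.93-fold its control mean, HSP90B1 1.64-fold and the disulfide isomerase-like CRELD2 1.60-fold. HYOU1, SDF2L1, CANX and CALR had log2 ratios to the control mean of 0.34, 0.27, 0.25 and 0.21. For CALR the sgCEBPD libraries lay on both sides of the controls: 1666 CPM in sgCEBPD 3 was above the highest control of 1561 CPM, while 921 CPM in sgCEBPD 2 was below the lowest of 1276 CPM.

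The oxidative folding enzymes were split, with 4 of 6 above, 1 below and 1 within the range. ERO1A read 193 CPM against 103 to 133 CPM, and PDIA4 227 CPM against 124 to 152 CPM. PDIA3 and PDIA6, further isomerases, had log2 ratios of 0.26 and 0.17. ERO1B at 37.9 CPM was within the range of 31.2 to 38.3 CPM, and P4HB was below, at 0.776-fold the control mean.

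Of the 8 degradation genes, 7 were above all other libraries in sgCEBPD 3, and their median log2 ratio of 0.82 was the highest of the 5 roles. HERPUD1 led at 4.84-fold the control mean. SYVN1, the ubiquitin ligase, read 44.1, 45.1, 47.1 and 45.1 CPM in the controls, 40.3, 40.7 and 47.6 CPM in sgCEBPD 1, 2 and 4 and 92.1 CPM in sgCEBPD 3, and only this last library lay outside 40.3 to 47.6 CPM. DERL2, a Derlin of the exit channel, read 53.1 CPM against 26.8 to 32.4 CPM. SEL1L, the partner that holds SYVN1 to its substrates, read 243 CPM against 128 to 148 CPM, EDEM1 264 CPM against 126 to 163 CPM and the lectin OS9 219.8 CPM against 132 to 165 CPM. DERL1 was 1.29-fold its control mean, and DERL3, with 21 reads in that library (exact Poisson 95% interval 13.0 to 32.1), was within the range. The median log2 ratio was 0.71 for chaperones, 0.56 for sensors and effectors, 0.22 for oxidative folding enzymes and 0.06 for translocon genes. Of the translocon genes, SEC61A1 was 1.08-fold, SSR1 1.04-fold and SEC61B 0.907-fold the control mean.

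**Figure D3:**
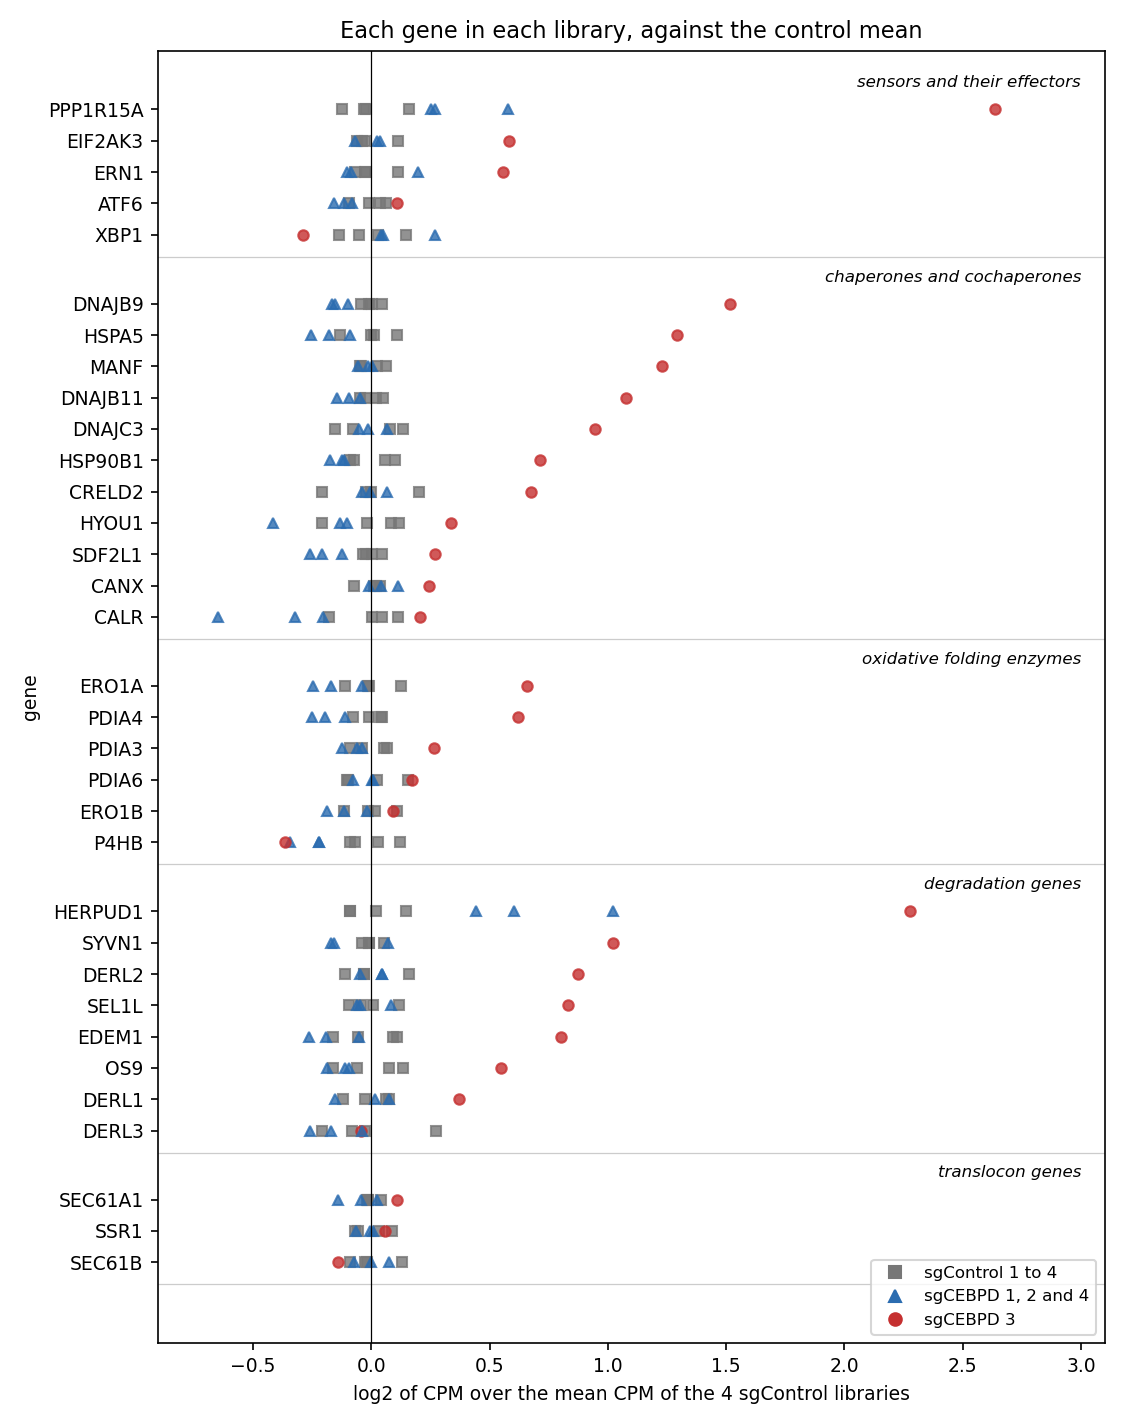
Log2 of each library's CPM over the mean CPM of the 4 sgControl libraries (x axis) for each of the 33 genes (y axis), grouped by role, with 1 point per library (grey squares sgControl 1 to 4, blue triangles sgCEBPD 1, 2 and 4, red circles sgCEBPD 3). The red circles reach 2.63 for PPP1R15A and 2.28 for HERPUD1 and lie to the left of every other point for XBP1, P4HB and SEC61B.

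**Figure D4:**
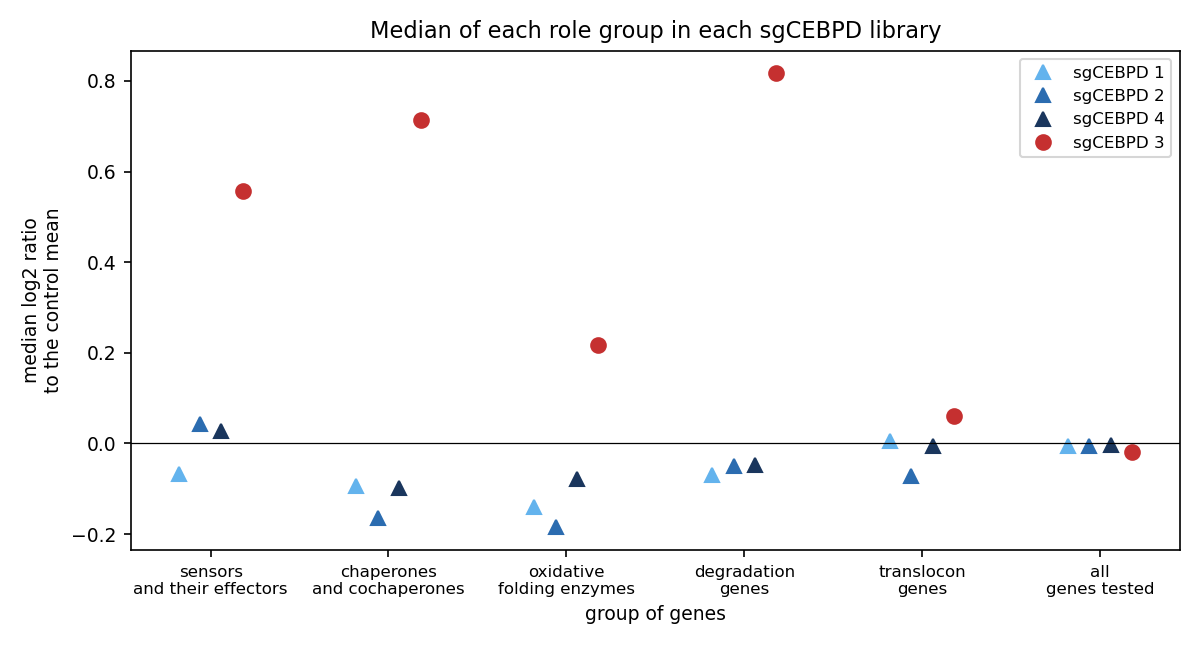
Median log2 ratio to the control mean (y axis) of the genes of each role and of all genes tested (x axis), with 1 point for each sgCEBPD library. In sgCEBPD 3 the medians run from 0.06 for translocon genes to 0.82 for degradation genes, while those of the chaperones and the oxidative folding enzymes lie between -0.19 and -0.08 in sgCEBPD 1, 2 and 4.

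The counting of some genes is uncertain. The strand setting of the counts is not given in the sources used here, and 13 of the 33 genes share exon bases with another gene that has a row of its own. Among them are DNAJB9 (with THAP5 and PNPLA8), SYVN1 (with MRPL49 and FAU), HSP90B1, DNAJB11 and CRELD2. PDIA3 and XBP1 also have pseudogenes with rows in the table. Counting partners without a row as well, 20 of the 33 genes share exon bases with another annotated gene. They include P4HB, CALR, HYOU1 and EIF2AK3, which antisense genes without a row overlap. HERPUD1, PPP1R15A and HSPA5 had no such overlap.

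Beyond these genes, 133 further members of the same pathways were listed in 8 groups, of which 127 were tested. Over 8 libraries 0 of 127 passed edgeR's quasi-likelihood test, beside 0.0795% of all genes. At an unadjusted p under 0.05, 5 were higher and 8 lower, beside 6.56% and 4.83% of all genes. DESeq2 called 5 (CHAC1, DDIT4, ERP29, EDEM3 and ERLIN1), beside 292 genes over the whole table, and gave no adjusted p for DDIT3. Limma-voom called 3 (DDIT4, ERP29 and EDEM3), beside 233 genes over the whole table. Without sgCEBPD 3, edgeR called 2 higher and 2 lower, beside 0.705% and 1.31% of all genes. DESeq2 then called 8 (CHAC1, DDIT4, SURF4, TMX4, ERP29, QSOX1, EDEM3 and ERLIN1), beside 596 genes over the whole table. Limma-voom called 3 (DDIT4, ERP29 and EDEM3), beside 229. In sgCEBPD 3, 60 of the 127 (47.2%) were above all 7 other libraries, beside 34.8% of all genes, and 8 of these were at least 2-fold the control mean, beside 8.14%.

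In the PERK and integrated stress arm 1 of 14 was called without sgCEBPD 3. CHAC1, which degrades glutathione and is a target of ATF4, read 3.32, 4.26, 3.63 and 6.15 CPM in the controls and 6.92, 12.9 and 14.9 CPM in sgCEBPD 1, 2 and 4 (log2 fold change 1.42, SE 0.29, edgeR adjusted p = 0.0471). All 3 lay above the highest control, and sgCEBPD 3 read 23.0 CPM. The call was lost without sgControl 1, 2 or 3 or without sgCEBPD 2 or 4 (adjusted p between 0.0910 and 0.157) and with limma-voom (0.0794). The same arm held the largest ratios of the wider lists in sgCEBPD 3, but not all of it was high. Of its 14 genes, 7 were above all 7 other libraries there, 3 below and 4 within the range, with a median log2 ratio of 0.12. ATF4 (log2 ratio 0.14) and ASNS (-0.26) were within the range in sgCEBPD 3. DDIT3 (CHOP), a C/EBP-family factor induced by ER stress, read 34.4 CPM there against 3.09 to 5.36 CPM in the other 7 libraries (log2 ratio 3.06). DDIT4 (REDD1), an inhibitor of mTORC1, read 181 CPM there against 20.4 to 41.8 CPM in the controls and 49.0, 74.9 and 69.5 CPM in sgCEBPD 1, 2 and 4, and did not pass without sgCEBPD 3 (log2 fold change 1.22, SE 0.29, edgeR adjusted p = 0.128; it passed by DESeq2 and by limma-voom and without sgControl 4).

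In the other lists 3 genes were called without sgCEBPD 3. ERP29, an ER protein of the disulfide isomerase family that lacks the active-site cysteines, was the call among 15 other oxidative folding enzymes. It read 210 to 221 CPM in the controls and 254, 255 and 253 CPM in sgCEBPD 1, 2 and 4 (log2 fold change 0.24, SE 0.04, edgeR adjusted p = 0.0157), and 258 CPM in sgCEBPD 3. Its call was lost without sgControl 1 (0.0620). EDEM3, which like EDEM1 trims mannose, was the call among 27 other degradation genes. It read 214 to 239 CPM in the controls and 177, 185 and 157 CPM in sgCEBPD 1, 2 and 4 (log2 fold change -0.37, SE 0.06, edgeR adjusted p = 0.0180), and 164 CPM in sgCEBPD 3, so all 4 sgCEBPD libraries were below. Its call was lost without sgControl 1 (0.0620) or sgCEBPD 1 (0.0517). SURF4, a cargo receptor for export from the ER, was the call among 17 other cochaperones and folding factors, with 276 to 317 CPM in the controls and 243, 239 and 243 CPM in sgCEBPD 1, 2 and 4 (log2 fold change -0.28, SE 0.05, edgeR adjusted p = 0.0324). In sgCEBPD 3 it read 385 CPM, above every control. Its call was lost without sgControl 1 or 4 or any of the 3 sgCEBPD libraries (adjusted p between 0.0576 and 0.110) and with limma-voom (0.0503).

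No gene passed in the remaining 4 lists, and the genes with the lowest unadjusted p in either comparison are given next with their values without sgCEBPD 3. Of 11 tested genes of ATF6 processing, MBTPS1, the protease that first cuts ATF6, had a log2 fold change of -0.14 (SE 0.05, edgeR adjusted p = 0.200), and CREB3L2 had -0.21 (SE 0.10). Of 7 tested genes of the IRE1 arm, MAP3K5 had -0.15 (SE 0.08) and RTCB, the ligase that joins the cut XBP1 RNA, 0.07 (SE 0.04). Of 8 genes of the glycoprotein folding cycle, UGGT1, the glucosyltransferase that marks unfolded glycoproteins, had -0.19 (SE 0.05, edgeR adjusted p = 0.0913) and the glucosidase MOGS -0.15 (SE 0.05). Of 28 other genes of translocation, signal cleavage and glycan transfer, SEC61A2 had 0.37 (SE 0.16) and SPCS2 0.11 (SE 0.05). Not all genes of these pathways were high in sgCEBPD 3. The lowest were CLGN, a calnexin relative, at 3.64 CPM against 9.65 to 15.5 CPM elsewhere (log2 ratio to the control mean -1.96), UBE2J2, a ubiquitin-conjugating enzyme of the ER, at 37.5 CPM against 90.4 to 104 CPM (-1.34), and PDIA5 at 17.9 CPM against 37.5 to 46.6 CPM (-1.28).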

How the data were processed

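The authors deposited 1 table of raw read counts per gene for the 8 libraries, with no normalisation. The submitters' processing notes name FastQC, HISAT2, DESeq2 and the build hg38, with no role or version. How reads were assigned to genes, with which annotation and strand setting, is not given in the sources used here. The column names are the library names of the labels, and 116 rows that repeat a symbol were kept as separate rows.

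The whole table was tested in R 4.3.3 with edgeR 4.0.16: filterByExpr with the group, TMM scaling, a robust quasi-likelihood fit with the group as the only term, and Benjamini-Hochberg adjustment across the table, with 0.05 as the threshold. The fit was run on 8 libraries (13838 genes) and, with its own filter and scaling, without sgCEBPD 3 (14047 genes). CPM values come from the scaling over 8 libraries (factors 0.955 to 1.01). The SE was derived as the size of the log2 fold change over the square root of its F statistic. The 7-library comparison was part of the rule for these genes, and the genes, roles, wider lists and markers were chosen with earlier results of these data known.

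All listed genes were named. Of each wider list, up to 3 genes past the threshold per direction with the lowest p were named, or 2 with the lowest p where none passed, together with the 3 highest and 3 lowest ratios in sgCEBPD 3. On simulated counts with 4 libraries against 4 (13647 genes tested), edgeR recovered 38% of genes raised 1.5-fold and 66% of those raised 2-fold, and 5.15% of its calls were unchanged genes. On 3 against 4 (13818 genes) it recovered 60% and 68%, and 7.5% of its calls were unchanged genes, above the nominal 5%. Each comparison was simulated in a single run, so small differences from the nominal share cannot be read. No simulated library stood apart as sgCEBPD 3 did, so the recovery over 8 libraries need not hold for the real counts. Alternatives were DESeq2 1.42.0, limma 3.58.1 voom with library quality weights, RLE factors, library totals, a mean of at least 5 CPM or no filter, leaving out each library and the guide number as a block. Positions and exon lengths come from GENCODE 29, and promoter windows (250 bases before to 50 after the start) from RefSeq on GRCh38.p14.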

Additional observations from a re-analysis of the deposited data

Results flagged for a closer look

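In groups of 4 libraries, a library was singled out where its gap to the nearest other, as a share of the group's range, exceeded Dixon's 95% critical value for 4 values. Chance singles out about 1 group in 20, which is 3.3 of the 66 groups examined here (33 genes in each of 2 conditions). There were 16 (24.2% of the groups, beside 10.2% over all 13838 genes tested), and in 15 of them the library was sgCEBPD 3, as the highest of the 4 sgCEBPD libraries. That is 45.5% of the 33 genes. Since sgCEBPD 3 stood apart over the whole table, the level to read this against is not 1 in 20: over all genes tested it was singled out for 13.1%, and as the highest for 8.71%.

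Among the sensors and effectors these were PPP1R15A (191 CPM against 36.5 to 45.9 CPM in the other 3) and EIF2AK3 (28.2 against 18.0 to 19.3 CPM). Among the chaperones they were HSPA5 (1308 against 448 to 502 CPM), HSP90B1 (624 against 338 to 351 CPM), DNAJB9 (30.9 against 9.65 to 10.1 CPM) and DNAJB11 (87.0 against 37.4 to 39.9 CPM). They also included DNAJC3 (112 against 55.8 to 60.6 CPM), MANF (90.2 against 37.0 to 38.6 CPM) and CRELD2 (37.1 against 22.6 to 24.3 CPM). PDIA4 was the 1 oxidative folding enzyme (227 against 124 to 137 CPM). The degradation genes were SEL1L (243 against 131 to 145 CPM), SYVN1 (92.1 against 40.3 to 47.6 CPM), EDEM1 (264 against 126 to 146 CPM), OS9 (219.8 against 132 to 141 CPM) and DERL2 (53.1 against 28.1 to 29.9 CPM).

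HERPUD1 was not among them, since its other 3 sgCEBPD values were themselves spread from 63.7 to 95.3 CPM. The single case in the controls was SEC61A1, at 331.5 CPM in sgControl 4 against 318.0 to 319 CPM in the other 3, a narrow range.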

How the results depend on the processing

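Over 8 libraries the count of genes called, 11, became 292 with DESeq2, 233 with limma-voom, 20 with no filter and 1 with a replicate block by guide number, and 0 to 283 with 1 library left out (283 without sgCEBPD 3, 0 without sgCEBPD 2, 1 without sgControl 1, 3 or 4, 6 without sgControl 2 or sgCEBPD 1). Members called higher went from 0 to 1 with DESeq2 and with limma-voom, and to between 0 and 1 with a library left out. Members called lower went from 0 to 1 with DESeq2, and to between 0 and 1 with a library left out; in these refits both calls (HERPUD1 and P4HB) appeared when sgCEBPD 3 was the library left out. The chaperone median of 0.21 became -0.11 with limma-voom and -0.14 to 0.28 with a library left out, and the oxidative folding median of 0.02 became -0.13 with limma-voom and -0.13 to 0.062 with a library left out. Without sgCEBPD 3, the count of 283 became 596 with DESeq2, 352 with the replicate block, 403 with no filter and 66 (without sgControl 1) to 312 (without sgCEBPD 4) with a further library left out. Members called lower, 1, became 2 with DESeq2 and with the replicate block (CALR, adjusted p = 0.00499 and 0.0139, beside P4HB), 0 with limma-voom, and 0 to 1 with a library left out, as did members called higher. The median of the sensors and effectors, 0.01, became -0.016 to 0.056 with a library left out. Deviations of control and sgCEBPD libraries with the same guide number correlated at 0.03, 0.06, -0.08 and -0.04 across genes. Not every library correlated best with its own number. The sgCEBPD deviations were taken from a mean that includes sgCEBPD 3, so these correlations cannot decide whether the libraries were paired. The library names carry matching numbers in both groups. The main fits did not pair the libraries, and the replicate block above did. No fold change past the threshold reversed under any of these alternatives. Library totals of 10217751 to 11521209 counts give the least precision to DERL3, with 21 reads in sgCEBPD 3, and of genes raised 1.5-fold in simulated counts 38% (8 libraries) and 60% (7 libraries) were recovered. The causes of these differences between tools and settings were not tested.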

Other observations

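The promoter letters and the levels in sgCEBPD 3 can be set side by side. The 7 genes with an exact ERSE in the promoter window had log2 ratios of sgCEBPD 3 to the control mean from -0.29 (XBP1) to 1.29 (HSPA5), with a median of 0.25. The 23 genes without it had ratios from -0.37 (P4HB) to 2.63 (PPP1R15A), with a median of 0.62. These 23 are not free of related elements: HYOU1 (0.34), SDF2L1 (0.27) and HERPUD1 (2.28) hold the shorter ERSE-II. The 2 ranges overlap, and no test was made.

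Per kb of exon, PPP1R15A stood at place 23 of the 33 genes in the controls (9.92 ± 0.840 CPM per kb, SD, n = 4) and at place 11 in sgCEBPD 3 (61.6 CPM per kb). HERPUD1 went from place 24 (9.09 ± 0.721 CPM per kb) to 13 (44.0 CPM per kb), and P4HB from place 3 to place 6.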
